A study of Rattus norvegicus with 16 samples.

Results

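The patellar tendon of the knee was compared with the supraspinatus tendon of the shoulder in total RNA from Sprague Dawley rats, across all genes of the deposited count table. The comparison took the 4 patellar and the 4 supraspinatus libraries, 8 of the 16 libraries of a series that also holds Achilles and forepaw flexor tendons and was designed to set each tendon against the others. The labels name no treatment and give no age, sex or site of cutting. The titles number the libraries of each tendon from 1 to 4 after the word rat, without saying whether a number stands for an animal or whether tendons share one. P-values thus measure the spread between libraries of a tendon, which may be technical. The fit took that spread from all 16 libraries of the series and not from the pair alone. The pair was picked because earlier results showed it to differ in the most genes, so the size of that count is a description. Library totals were 63397591 to 74829951 counts for patellar and 81788059 to 101675519 counts for supraspinatus tendon, and 3 counts in a library were worth 0.0365 to 0.0485 CPM. Levels are TMM-scaled CPM (counts scaled to one common library total, not divided by gene length), so they were compared between libraries and not between genes. A log2 fold change is always patellar over supraspinatus ± SE, from edgeR's quasi-likelihood test with Benjamini-Hochberg adjusted p. The SE was derived from that test, as the size of the fold change over the square root of its F statistic. A positive value means more RNA in patellar tendon. In bulk tissue, fewer cells of a type and less RNA per cell cannot be told apart.

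Tendon carries the pull of a muscle to bone. Its fibroblasts lay down type I collagen fibrils and the small proteoglycans that set fibril diameter, and near the bone, or where a tendon is pressed against it, the tissue takes on features of cartilage. The patellar tendon links kneecap to shin, whereas the supraspinatus tendon of the rotator cuff runs over the joint to the humerus and is short, with muscle fibres attached close to the insertion. In muscle fibres, transcription factors of the MyoD family bind E boxes such as CAGCTG, MEF2 factors bind an AT-rich site, and serum response factor binds the CArG box.

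Both labels were first set against defining markers. Tendon genes were present in all 8 libraries: Col1a1, the main chain of type I collagen, stood at 47100, 65050, 76730 and 101400 CPM in patellar libraries 1 to 4 and at 50210, 55430, 34380 and 26740 CPM in supraspinatus libraries 1 to 4. Tnmd, which encodes tenomodulin, was between 258 and 1054 CPM in these libraries. The 13 fast and pan-fibre muscle genes of a muscle score, among them Acta1 (skeletal actin) and Ckm (muscle creatine kinase), took 2.75, 0.113, 0.031 and 0.341% of the raw counts in patellar libraries 1 to 4. They took 10.7, 7.88, 10 and 14% in supraspinatus libraries 1 to 4. The muscle share used below is their summed TMM-scaled CPM as a percentage of the common total of the CPM scale, not of a library's own counts. On that scale it was 2.44, 0.101, 0.0291 and 0.325% in the patellar and 13.4, 9.21, 11.5 and 19.1% in the supraspinatus libraries. Skeletal muscle RNA was thus part of every supraspinatus library, with patellar 1 above the other patellar libraries. The groups did not overlap.

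The sequences just upstream of 4 genes that the results turn on are shown for orientation: Ckm and Acta1 as muscle genes, and Chad and Grem1 as genes higher in supraspinatus tendon that are not muscle genes. Each is the 250 bases before the annotated start, 5′ to 3′, from RefSeq on GRCr8. Capitals mark CAGCTG or, in Acta1 alone, also a CArG box.
Ckm, chr1:88189211-88189460, plus strand: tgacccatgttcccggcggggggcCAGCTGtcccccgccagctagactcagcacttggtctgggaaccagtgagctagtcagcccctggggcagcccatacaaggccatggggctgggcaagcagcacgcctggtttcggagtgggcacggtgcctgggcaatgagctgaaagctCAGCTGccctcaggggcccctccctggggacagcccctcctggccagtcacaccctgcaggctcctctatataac
Acta1, chr19:68784195-68784444, minus strand: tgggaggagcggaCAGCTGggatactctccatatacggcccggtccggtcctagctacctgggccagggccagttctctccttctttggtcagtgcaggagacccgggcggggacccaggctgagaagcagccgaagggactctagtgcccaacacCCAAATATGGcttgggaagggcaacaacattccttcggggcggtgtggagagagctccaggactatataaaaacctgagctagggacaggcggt
Chad, chr10:80008795-80009044, plus strand: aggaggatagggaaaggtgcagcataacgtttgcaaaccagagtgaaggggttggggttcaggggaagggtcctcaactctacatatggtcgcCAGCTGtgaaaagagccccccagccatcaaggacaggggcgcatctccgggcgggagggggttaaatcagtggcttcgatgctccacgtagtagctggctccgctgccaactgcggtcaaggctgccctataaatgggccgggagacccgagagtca
Grem1, chr3:120978320-120978569, minus strand: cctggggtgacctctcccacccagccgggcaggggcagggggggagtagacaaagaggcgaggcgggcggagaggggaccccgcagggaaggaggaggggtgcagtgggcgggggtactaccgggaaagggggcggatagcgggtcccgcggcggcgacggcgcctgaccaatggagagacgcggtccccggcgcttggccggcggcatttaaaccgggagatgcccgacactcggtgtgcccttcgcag
Ckm held CAGCTG at 226 and 75 bases before the start, Acta1 at 237 and Chad at 157, while Acta1 held its CArG box at 94. In Grem1 none of these letters occurred in this window. CAGCTG, which reads the same on both strands, was found in 12% of all 33469 RefSeq promoters of this length. It was found in 3 of 11 promoters of the muscle score genes, in 13 of 31 of other muscle fibre genes and in 4 of 10 of slow-fibre genes. The MEF2 site, searched on both strands, was in 1.68% of all promoters, in 1 of the 11, 9 of the 31 and 2 of the 10. Of 9 promoters of neuromuscular junction genes 5 held CAGCTG and 0 the MEF2 site. For comparison, CAGCTG was in 6 of 23 promoters of cartilage genes, 2 of 23 of limb position and HOX genes and 0 of 21 of cell cycle genes. These matches describe the letters and not binding.

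Of 16948 genes tested, 9555 differed between the tendons, which is 56.4%. They divided into 4887 genes higher in patellar (28.8%) and 4668 higher in supraspinatus tendon (27.5%), and 2688 and 2195 of these differed at least 2-fold. In 3940 genes (23.2%) every patellar library was above every supraspinatus library, and in 4243 genes (25%) the reverse held. The median log2 fold change over all genes tested was 0.05. The split depended on the scale: on library totals without TMM the median was 0.46, and 8424 genes were higher and 2523 lower in patellar tendon, a higher share of 77% in place of 51.1%. TMM factors were 1.0504 to 1.1267 in patellar and 0.7312 to 0.8763 in supraspinatus libraries. All fold changes below are relative to the TMM scale, and counts of list members stand against these shares of all genes.

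**Figure D1:**
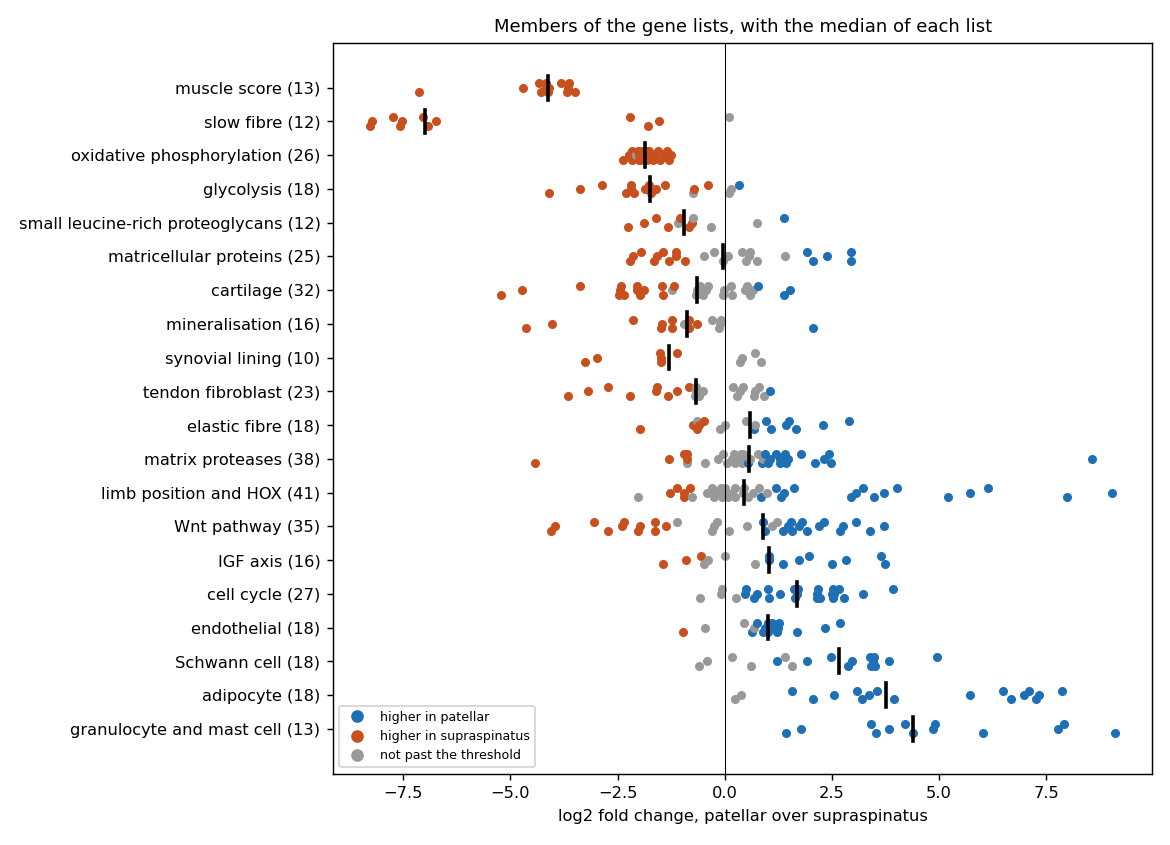
Log2 fold change (patellar over supraspinatus, x axis) of each tested member of 20 gene lists (y axis, number of members in brackets), 1 point a gene, coloured by call. Black bars are list medians; muscle and energy lists lie on the supraspinatus side, with medians from -6.98 to -1.75, and cell cycle, fat, nerve and granulocyte lists on the patellar side.

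Muscle fibre genes were among the largest fold changes of the supraspinatus side. All 13 score genes were higher there (median log2 fold change -4.12, against 0.05 for all genes), as were 34 of 35 other fibre genes (median -4.21) and 11 of 12 slow-fibre genes (median -6.98). Ckm stood at 2454, 77.5, 16.1 and 302 CPM in patellar libraries 1 to 4 and at 13250, 8839, 11050 and 17930 CPM in supraspinatus libraries 1 to 4 (log2 fold change -4.16 ± 1.26, adjusted p = 0.0115). Acta1 stood at 9524, 340.3, 108 and 1142 CPM in patellar libraries 1 to 4 and at 53990, 39540, 48250 and 82590 CPM in supraspinatus libraries 1 to 4 (log2 fold change -4.34 ± 1.27, adjusted p = 0.00952). The fast gene Tnni2, an inhibitory troponin subunit, stood at 1498, 63.2, 9.44 and 209 CPM in the patellar and 7755, 4895, 6643 and 11370 CPM in the supraspinatus libraries (log2 fold change -4.11 ± 1.18, adjusted p = 0.0084). In each of these genes patellar 1 was the highest patellar library and patellar 3 the lowest, and no patellar library reached the supraspinatus range. Without patellar 1 the log2 fold changes of Ckm, Acta1 and Tnni2 were -6.63, -6.76 and -6.39. Myosin and actin genes have near-identical copies that can share reads, so the level of Acta1 and of the fast myosin gene Myh4 (-4.03 ± 1.18) is uncertain.

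Slow-fibre genes were higher in supraspinatus tendon too, in another order of libraries. Myh7, the slow myosin heavy chain, stood at 2.21, 9.66, 15.8 and 2.37 CPM in patellar libraries 1 to 4 and at 1291, 3856, 859 and 3248 CPM in supraspinatus libraries 1 to 4 (log2 fold change -8.27 ± 1.68, adjusted p = 0.000805). Tnni1, the slow troponin inhibitory subunit, was at 1.39, 5.01, 7.74 and 1.64 CPM in the patellar and 366, 709, 188 and 826 CPM in the supraspinatus libraries (log2 fold change -7.05 ± 1.29, adjusted p = 0.000352). Csrp3, a muscle LIM protein of the sarcomere's Z disc that was on no list, was at 0.584, 1.12, 1.32 and 0.611 CPM in the patellar and 391, 407, 118 and 491 CPM in the supraspinatus libraries (log2 fold change -8.60 ± 1.12, adjusted p = 2.21e-05). Patellar 1, the patellar library with most Ckm, had the least of all 3 genes, and supraspinatus 2, with the least Ckm, had the most Myh7. Supraspinatus 3 was the lowest supraspinatus library for all 3. Without patellar 3, the patellar library with most Myh7, its log2 fold change was -8.94. Myoz2, Myl2 and Myl3 differed by -8.22, -7.75 and -7.53 in the same direction, and the calcium pump gene Atp2a2, which other cells also express, by -1.53 ± 0.30. The one slow-fibre gene that did not pass was Myh7b (log2 fold change 0.09 ± 0.30, adjusted p = 0.821). The summed level of the list was 490.9 to 521.4 CPM in patellar and 6604 to 19280 CPM in supraspinatus libraries. In the rest of the series Myh7 averaged 850.5 CPM in Achilles and 25.4 CPM in flexor tendon, while Ckm averaged 251 and 2206 CPM. Between these tendon means the order of Myh7 and Ckm was thus opposite. Among libraries of one tendon it could be the same. Myh7 was at 1.33, 1601, 250 and 1550 CPM in Achilles libraries 1 to 4, where the score genes summed to 310.3, 7295, 1584 and 7125 CPM.

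**Figure D2:**
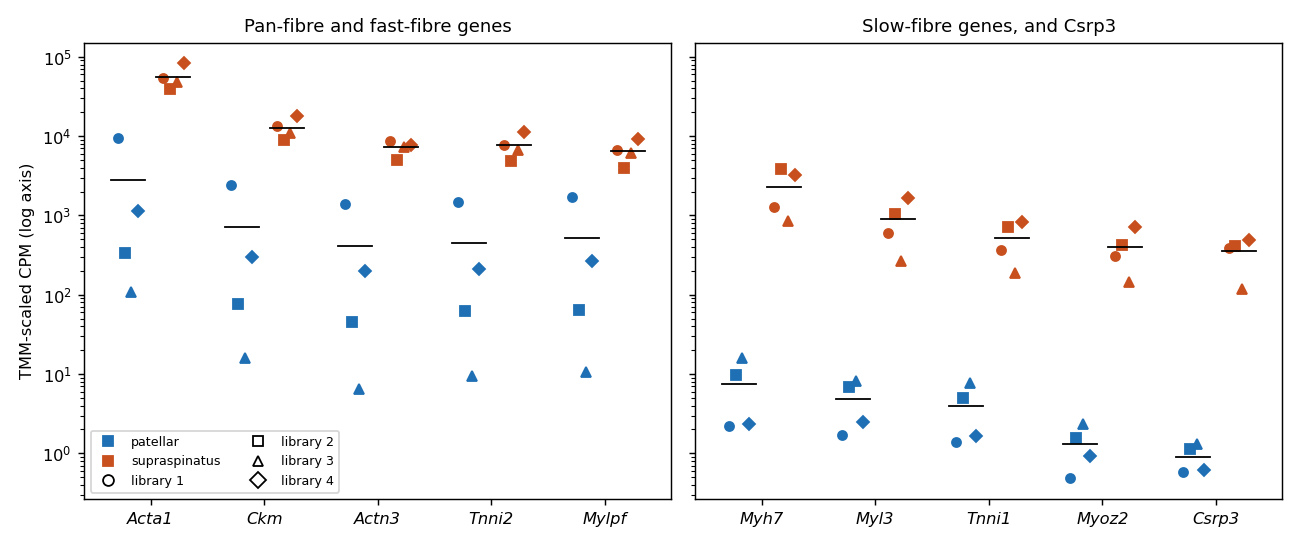
TMM-scaled CPM (y axis, log scale) of 5 pan-fibre or fast-fibre genes and of 5 other fibre genes, Myh7, Myl3, Tnni1, Myoz2 and Csrp3, in each patellar and supraspinatus library (marker shape); bars are means of 4 libraries. Ckm runs from 16.1 to 2450 CPM among the patellar libraries, whereas Myh7 runs from 2.21 to 15.8 CPM with patellar 1 the lowest.

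One fibre gene did not follow the rest. Mybph, a myosin-binding protein of fast fibres, stood at 246, 20.2, 15.8 and 32.5 CPM in the patellar and 35.6, 67.1, 64.4 and 142 CPM in the supraspinatus libraries (log2 fold change 0.03 ± 0.80, adjusted p = 0.981). Its highest library of all 8 was patellar 1, and the groups overlapped. Without patellar 1 it was higher in supraspinatus tendon (log2 fold change -1.78, adjusted p = 0.0232).

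Genes of the nerve-muscle contact and of muscle stem cells were also higher in supraspinatus tendon. Of 12 genes of the neuromuscular junction 9 were higher there and 1 lower (median -2.05). Chrnd, a subunit of the acetylcholine receptor, was at 0.231, 0, 0.106 and 0 CPM in the patellar and 8.25, 13.6, 3.15 and 21.9 CPM in the supraspinatus libraries (log2 fold change -7.06 ± 1.38, adjusted p = 0.00061), with no overlap. Dok7 and Musk, which cluster that receptor, differed by -4.98 ± 0.95 and -3.37 ± 0.41. Agrn, whose product agrin triggers the clustering and is also made by vessels and nerve, was the exception, at 104, 123, 131 and 138 CPM in the patellar and 42.8, 45.6, 49.1 and 44.1 CPM in the supraspinatus libraries (log2 fold change 1.45 ± 0.16, adjusted p = 6.41e-06). Of 15 genes of satellite cells (the stem cells of muscle) and of myogenic factors 12 were higher in supraspinatus tendon and 1 in patellar tendon (median -3.55). Pax7, which marks satellite cells, was at 0.353, 0, 0 and 0.0636 CPM in the patellar and 3.42, 2.65, 3.36 and 5.74 CPM in the supraspinatus libraries (log2 fold change -5.13 ± 1.16, adjusted p = 0.00177), and Myod1, a master factor of muscle fate, was at 6.56, 0.128, 0.0132 and 1.13 CPM in the patellar and 67.4, 38, 51.4 and 59.5 CPM in the supraspinatus libraries (log2 fold change -4.78 ± 1.15, adjusted p = 0.00276). The member higher in patellar tendon was Msc (log2 fold change 1.59 ± 0.49, adjusted p = 0.0129), a repressor of the same factor family, at most 1.15 CPM in any library of the pair. Without patellar 1 the log2 fold changes of Chrnd, Dok7, Pax7 and Myod1 were -8.33, -6.63, -7.36 and -7.00, and without patellar 4 Msc did not pass (1.11, adjusted p = 0.0662). The muscle share moved with both lists, and its part in them was not tested beyond the values that follow.

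Muscle RNA was separated from other genes in a pair of ways, both of which use the spread of muscle RNA among libraries of one tendon. In the first, the mean log2 level of the 13 score genes was a covariate of the fit. With it, 3232 genes differed (19.1%), 1715 higher in patellar (10.1%) and 1517 in supraspinatus tendon (8.95%). Of these, 1663 and 1462 were among the genes called without the covariate. The centred score ran from -5.21 to 1.31 in patellar and from 3.31 to 4.31 in supraspinatus libraries. The score thus moves with the contrast and can widen its SE, so a call lost with it does not alone mark muscle RNA. The log2 fold change of Ezr was -1.99 without and -1.98 with the score, while its SE went from 0.134 to 0.244. Of genes called higher in patellar tendon, 1 passed with a positive slope on the score. The covariate took its range mostly from patellar 1 and patellar 3: without patellar 1 the counts were 983 and 621, and without patellar 3 they were 1028 and 984. Outside the score, 330 genes (1.95%) rose with it among libraries of the same tendon and 14 (0.0827%) fell. Without patellar 1, 207 genes rose. Of the 330, 314 were higher in supraspinatus tendon, and 288 were on no muscle list.

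The genes that rose with the score without being on a muscle list were led, by p, by genes known from muscle membranes and their coupling to calcium. Clcn1, the chloride channel of muscle, was at 10.9, 0.482, 0.106 and 1.58 CPM in the patellar and 113, 86.8, 82.3 and 153 CPM in the supraspinatus libraries (log2 fold change -5.05 ± 1.08, adjusted p = 0.00119). Cacng1, a calcium channel subunit, differed by -4.64 ± 1.12, Cav3, the caveolin of muscle, by -4.20 ± 0.99, and Dhrs7c, of the sarcoplasmic reticulum, by -4.03 ± 1.07. The splicing factor gene Rbfox1 (-4.56 ± 1.06) and Hhatl (-4.15 ± 1.22) completed the 6. Leaving out patellar 1 made the log2 fold changes of these 6 larger in size, from -7.25 in Clcn1 to -5.92 in Dhrs7c. With the score in the fit, the fold change of Clcn1 was -0.70, adjusted p = 0.0281, and those of the other 5 did not pass (adjusted p from 0.0857 to 0.596). The 6 were picked by their slope on this same score, so that loss is in part given by the choice. Genes that fell with the score included Dgat1, which makes triglyceride, at 64.3, 111, 121 and 67.3 CPM in the patellar and 32.3, 29.5, 26.4 and 28.2 CPM in the supraspinatus libraries (log2 fold change 1.64 ± 0.20, adjusted p = 1.13e-05), and Gpnmb, a macrophage and osteoblast glycoprotein (log2 fold change -0.17 ± 0.27, adjusted p = 0.63).

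The second way asked how much of each difference in CPM went with the muscle share itself. The level of each gene was regressed on the share of the 13 score genes within tendons over all 16 libraries. The slope, times the 12.57 percentage points by which the mean share of the tendons differed on the TMM scale, was expressed as a percentage of the difference, called the muscle part. A muscle part of 100% means that the slope within tendons spans the whole difference, 0% that it spans none, and a negative value that the gene ran lower in libraries with more muscle. Among the 4655 genes higher in supraspinatus tendon outside the score, the median muscle part was 73.5%. It was over 50% in 2840, between 0 and 50% in 716 and below 0% in 1099. It lay above 50% by more than 2 standard errors in 1461 genes (31.4%) and below 50% by as much in 631 (13.6%).

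These values rested on supraspinatus 4, the library with most muscle RNA. Without it the median was 48.7%, with 498 genes above and 411 below 50%, of which 381 and 272 were the same genes as before. Without supraspinatus 2 it was 89.1%, and without each of the other libraries it lay between 69 and 73.4%. On library totals 908 genes were above 50%. The muscle part and the score can differ for one gene: Csrp3 passed with the score (-7.14, adjusted p = 0.0483) while its muscle part was 80.1 ± 40.8%. Sbk2, Agbl1, Amy1a, Sh3rf2, Padi2 and Ddit4l2 were likewise among the 12 genes of largest fold that passed with the score, and their muscle parts were 217 ± 53.3%, 168 ± 31.7%, 95.2 ± 33.8%, 113 ± 45.2%, 84.6 ± 20.5% and 137 ± 19.4%. Those of Amy1a and Sh3rf2 were -38.3 and 216% without supraspinatus 4, and those of Amy1a and Csrp3 were 181 and 176% without supraspinatus 2, with Csrp3 at 44.1% without supraspinatus 3. In Sbk2, Agbl1 and Ddit4l2 a call with the score went with a muscle part over 100% in each setting run.

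The lists parted widely on the muscle part. Its median was 89.8% over the 34 other fibre genes higher in supraspinatus tendon, 27 of them above 50% by 2 standard errors and 0 below. It was 88.8% over the 11 slow-fibre genes, but -39.1% without supraspinatus 4 and 221% without supraspinatus 2, and 2 were above 50%. It was 87.6% over the 9 junction genes and 78.3% over the 12 satellite cell and myogenic genes. It was -146% over 14 cartilage genes, -90.7% over 10 matricellular genes, -84.2% over 9 tendon fibroblast genes and -81.3% over 7 small leucine-rich proteoglycans. Without supraspinatus 4 these 4 medians were -91.1, -71.4, -40.7 and -35.4%, and without supraspinatus 2 that of the cartilage genes was -66.6%. In the pair alone the 4 were -68.5, -58.3, -70.9 and -76.3%, and on library totals -180, -141, -160 and -147%.

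**Figure D3:**
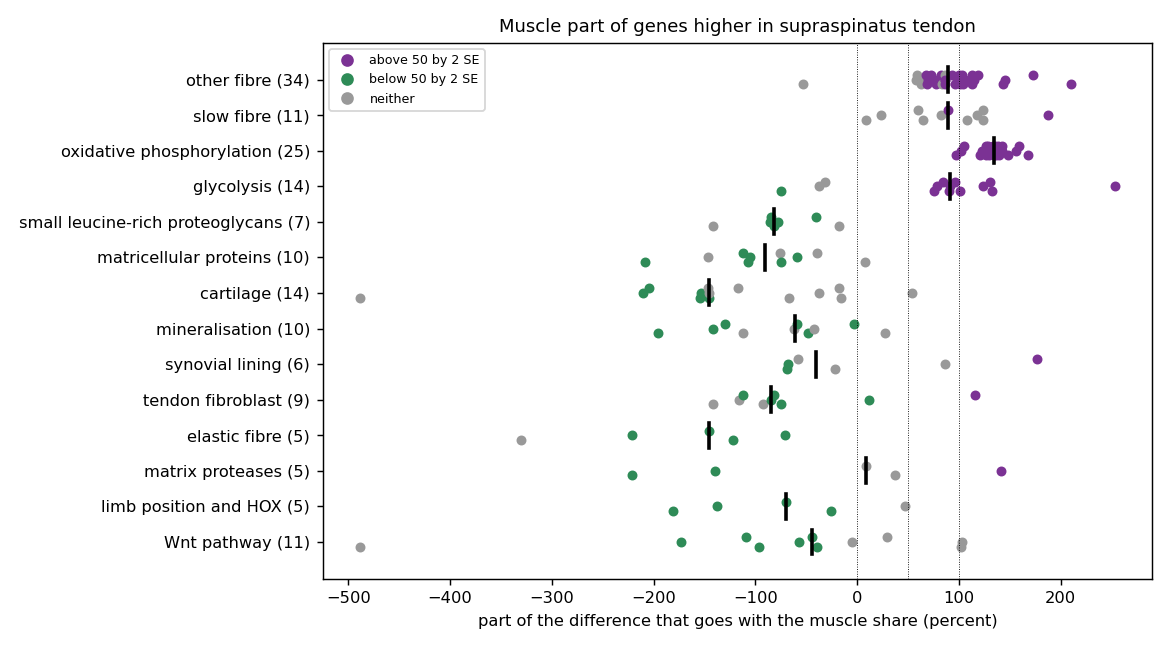
Muscle part in percent (x axis) of each gene higher in supraspinatus tendon, by list (y axis, number of genes in brackets), with list medians as black bars and colours for genes above or below 50% by 2 standard errors. Fibre and energy genes mostly lie above 50%, with a median of 134% for oxidative phosphorylation, and matrix and cartilage genes mostly lie below 0%.

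Energy genes were mostly higher in supraspinatus tendon. Of 26 genes of oxidative phosphorylation, the respiratory chain and ATP synthase of mitochondria, 25 were higher in supraspinatus tendon and 0 in patellar tendon (median -1.86). Their summed level was 6351, 5196, 4888 and 4215 CPM in patellar libraries 1 to 4 and 17070, 15560, 13510 and 28380 CPM in supraspinatus libraries 1 to 4. Supraspinatus 4, with most muscle RNA, was highest, and the groups did not overlap. Ndufs1, a subunit of complex I, was at 149, 109.7, 101 and 89.5 CPM in the patellar and 513, 524, 378 and 911 CPM in the supraspinatus libraries (log2 fold change -2.37 ± 0.29, adjusted p = 1.23e-05), and Atp5f1b, of ATP synthase, at 1425, 1044, 1010 and 827 CPM in the patellar and 3963, 3686, 2957 and 6516 CPM in the supraspinatus libraries (log2 fold change -1.99 ± 0.27, adjusted p = 2.8e-05). The muscle part was above 50% by 2 standard errors in all 25 (median 134%, range 96.7 to 168%, and 76.3% as the median without supraspinatus 4), yet 17 passed with the score and 0 of 26 had a positive slope on it. Of 18 glycolysis genes 14 were higher in supraspinatus tendon and 1 in patellar tendon (median -1.75, median muscle part 90.9%), and 4 had a positive slope on the score. Pfkm, the muscle form of phosphofructokinase, differed by -4.11 ± 0.72, whereas the liver form Pfkl was the gene higher in patellar tendon (0.34 ± 0.10). Counts of Gapdh and Tpi1 were low for such abundant genes, so what they measure is uncertain. Pfkm stood at a log2 fold change of -5.64 without patellar 1, where Pfkl did not pass (0.23, adjusted p = 0.0661).

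After Csrp3, the BMP antagonist gene Grem1 had the largest fold change of the named genes that were higher in supraspinatus tendon and on no muscle list. Gremlin binds BMP ligands outside the cell and shapes the limb bud. Grem1 stood at 0.572, 0.383, 0.145 and 0.382 CPM in patellar libraries 1 to 4 and at 100.4, 135, 115 and 89.4 CPM in supraspinatus libraries 1 to 4 (log2 fold change -8.20 ± 0.46, adjusted p = 8.23e-08). No patellar library reached 1 CPM. With the score the fold change was -7.33, adjusted p = 5.07e-05, and the muscle part was -62.4 ± 32.8% (-93.2% without supraspinatus 4). The ligand genes Bmp5 (log2 fold change -2.40 ± 0.27, adjusted p = 7.59e-06) and Bmp6 (log2 fold change -0.71 ± 0.21, adjusted p = 0.00944) were also higher in supraspinatus tendon. The antagonist gene Chrdl2 (-3.99 ± 0.49) and the muscle growth inhibitor gene Mstn (-3.85 ± 1.03), both known from muscle, were on the same side. The log2 fold change of Mstn was -5.73 without patellar 1, and without both patellar 1 and supraspinatus 4 Bmp6 did not pass (-0.50, adjusted p = 0.0701).

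Patellar tendon had more of other BMP genes. Bmp7 was at 2.24, 4.5, 10.9 and 15.8 CPM in the patellar and 0.135, 0.166, 0.0419 and 0.21 CPM in the supraspinatus libraries (log2 fold change 5.91 ± 0.75, adjusted p = 1.77e-05), without overlap. Gdf5, a growth factor of joints and tendon, was at 14.7, 6.52, 9.36 and 7.07 CPM in the patellar and 1.89, 1.73, 0.865 and 0.744 CPM in the supraspinatus libraries (log2 fold change 2.84 ± 0.35, adjusted p = 1.47e-05). Among antagonists Chrdl1 (log2 fold change 1.93 ± 0.25, adjusted p = 2.07e-05), Fst (log2 fold change 1.38 ± 0.26, adjusted p = 0.000391) and Nog (log2 fold change 0.92 ± 0.28, adjusted p = 0.0112) were higher in patellar tendon. Id3, a gene that BMP signals switch on, was higher there as well (log2 fold change 1.23 ± 0.18, adjusted p = 4.85e-05), Id1 was not called (log2 fold change 0.58 ± 0.26, adjusted p = 0.0711) and Smad6, a feedback inhibitor, was higher (1.44 ± 0.49). In all 11 of 29 genes of this list were higher in patellar and 8 in supraspinatus tendon (median 0.44). Smad6 did not pass without patellar 4 (0.97, adjusted p = 0.103), whereas Id1 passed without patellar 4 (0.71, adjusted p = 0.0365) or without supraspinatus 4 (0.91, adjusted p = 0.00566).

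Cells of the tendon sheath and joint lining are marked by Tppp3 and by the lubricant gene Prg4. Tppp3, a tubulin-binding protein of sheath cells, stood at 169, 95.8, 102 and 135 CPM in patellar libraries 1 to 4 and at 760.1, 749.8, 952 and 876 CPM in supraspinatus libraries 1 to 4 (log2 fold change -2.73 ± 0.17, adjusted p = 1.56e-07). Its muscle part was 12.1 ± 11.9%, and between -1.3 and 24.1% with each library left out. Prg4, which encodes lubricin, was at 162, 93.1, 93.1 and 64.5 CPM in the patellar and 811, 794, 973 and 658 CPM in the supraspinatus libraries (log2 fold change -2.97 ± 0.32, adjusted p = 4.58e-06). Neither gene's groups overlapped. Of 10 synovial lining genes 6 were higher in supraspinatus tendon and 0 in patellar tendon (median -1.30), with summed levels of 2296 to 4168 and 6817 to 9248 CPM. They included the hyaluronan synthase gene Has1 (-3.27 ± 0.67), the fibronectin gene Fn1 (-1.48 ± 0.25), Creb5 (-1.5 ± 0.25), Clic5 (-1.5 ± 0.30) and Cd55 (-1.11 ± 0.22). Prg4, Fn1, Creb5 and Cd55 passed with the score. Whether sheath or joint lining was cut with the tendon was not tested. Without supraspinatus 4 the log2 fold change of Has1 was -2.57.

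Small leucine-rich proteoglycans, which bind collagen fibrils, were mostly higher in supraspinatus tendon: 7 of 12 were higher there and 1 in patellar tendon (median -0.95). Prelp, an anchor between basement membrane and collagen, was at 988, 525, 886 and 787 CPM in the patellar and 4141, 3872, 4025 and 3281 CPM in the supraspinatus libraries (log2 fold change -2.27 ± 0.22, adjusted p = 2.31e-06). Chad, the cartilage protein chondroadherin whose upstream sequence is shown above, was at 3011, 647, 1654 and 1023 CPM in the patellar and 5411, 6291, 6046 and 5511 CPM in the supraspinatus libraries (log2 fold change -1.88 ± 0.39, adjusted p = 0.000942). Fmod, fibromodulin, was at 2722, 2598, 3002 and 3508 CPM in the patellar and 8809, 8660, 6713 and 5429 CPM in the supraspinatus libraries (log2 fold change -1.32 ± 0.30, adjusted p = 0.00195). The supraspinatus libraries lay close together in Prelp and Chad, those of Fmod spread more than its patellar libraries, and the groups did not overlap in any of the 3. Bgn (-1.05 ± 0.27), Kera (-1.61 ± 0.42), Dcn (-0.84 ± 0.27) and the low gene Optc (-0.76 ± 0.14) were on the same side, Lum did not pass (log2 fold change -0.33 ± 0.32, adjusted p = 0.393), and Epyc was higher in patellar tendon (1.38 ± 0.31). All 7 had a negative muscle part. With the score Prelp and Optc passed. Without patellar 4 Lum was higher in supraspinatus tendon (log2 fold change -0.86, adjusted p = 0.00718).

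Other matrix genes of the pericellular space followed. Vcan, the large proteoglycan versican, was at 74.2, 50.8, 141 and 103 CPM in the patellar and 699, 562, 547 and 403 CPM in the supraspinatus libraries (log2 fold change -2.58 ± 0.28, adjusted p = 5.88e-06). Thbs4, a thrombospondin of tendon, was at 318, 696, 644 and 832 CPM in the patellar and 3434, 3392, 2755 and 1961 CPM in the supraspinatus libraries (log2 fold change -2.21 ± 0.36, adjusted p = 0.000142), with supraspinatus 4 the lowest of its group. Comp, a fibril-assembling protein, was at 1519, 849, 1516 and 1345 CPM in the patellar and 4098, 4576, 4017 and 2874 CPM in the supraspinatus libraries (log2 fold change -1.57 ± 0.38, adjusted p = 0.00284). None of the 3 overlapped. Of 25 genes of the thrombospondin and matricellular list 10 were higher in supraspinatus and 5 in patellar tendon (median -0.05), and on library totals there were 9 on each side. Thbs1 (-1.31 ± 0.26), Spp1, or osteopontin (-2.14 ± 0.62), the growth factor gene Ctgf (-1.95 ± 0.47) and Nov (-1.66 ± 0.36) were among the 10. The hyaluronan receptor gene Cd44 was higher in supraspinatus tendon (-1.59 ± 0.14), and Acan, the main proteoglycan of cartilage, did not pass (log2 fold change -0.43 ± 0.51, adjusted p = 0.496). That of Spp1 was -2.74 without patellar 1.

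Cartilage genes were higher in supraspinatus tendon for 14 of 32 and in patellar tendon for 3 (median -0.65), and their summed levels were 2356 to 6152 CPM in patellar and 11120 to 17050 CPM in supraspinatus libraries. They fell into even and uneven genes. Clec3a, a cartilage lectin, was even among supraspinatus libraries, at 1574, 228, 1107 and 833 CPM in the patellar and 3976, 3994, 3950 and 3495 CPM in the supraspinatus libraries (log2 fold change -2.04 ± 0.45, adjusted p = 0.00155). Col2a1, the collagen of hyaline cartilage, was uneven, at 46.7, 43.6, 48.1 and 51.7 CPM in the patellar and 2019, 4173, 195 and 669 CPM in the supraspinatus libraries (log2 fold change -5.21 ± 0.80, adjusted p = 8.16e-05). Supraspinatus 2 had the most Col2a1 and supraspinatus 3 the least, still above every patellar library. Col9a1, which partners type II collagen, was at 1.59, 1.18, 0.502 and 0.865 CPM in the patellar and 8.97, 11.3, 0.67 and 1.44 CPM in the supraspinatus libraries (log2 fold change -2.43 ± 0.78, adjusted p = 0.0158), with supraspinatus 3 and 4 inside the patellar range. Sox9, the master factor of cartilage, was at 38.6, 4.18, 19.96 and 14.5 CPM in the patellar and 48.5, 46, 56.4 and 63.2 CPM in the supraspinatus libraries (log2 fold change -1.47 ± 0.54, adjusted p = 0.0302), and Sox5 and Sox6, its partners, differed by -1.19 ± 0.30 and -2.43 ± 0.23. The cartilage growth plate receptor gene Pth1r was higher in patellar tendon (1.51 ± 0.28). The muscle part was below 0% in 13 of the 14, and 3 passed with the score (Col2a1, Sox6 and Frzb). Without supraspinatus 2 the log2 fold change of Col2a1 was -4.34, and Col9a1 did not pass (-1.84, adjusted p = 0.0616). Sox9 did not pass when patellar 3, patellar 4, supraspinatus 3 or supraspinatus 4 was left out (adjusted p from 0.0523 to 0.0694), and without patellar 1 its log2 fold change was -2.08.

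Mineralisation genes leaned the same way, 10 of 16 higher in supraspinatus and 1 in patellar tendon (median -0.89). Mepe, a phosphoprotein of osteocytes, was at 0.718, 0.114, 0.158 and 0.127 CPM in the patellar and 7.26, 5.53, 9.2 and 6.34 CPM in the supraspinatus libraries (log2 fold change -4.64 ± 0.90, adjusted p = 0.000566). Ibsp, bone sialoprotein, was at 3.35, 3.72, 3.77 and 1.67 CPM in the patellar and 30.6, 149.5, 1.51 and 23.1 CPM in the supraspinatus libraries (log2 fold change -4.03 ± 1.09, adjusted p = 0.00588), with supraspinatus 2 the highest and supraspinatus 3 the lowest as for Col2a1, the latter inside the patellar range. Bglap, or osteocalcin, a defining gene of osteoblasts, was at 0.0851, 0.255, 0.224 and 0.153 CPM in patellar and 0.147, 0.395, 0.181 and 0.0485 CPM in supraspinatus libraries, near 0 in both. None of the 10 passed with the score, and on library totals 5 genes of the list were higher in supraspinatus tendon. The gene higher in patellar tendon was the phosphate regulator Phex (2.06 ± 0.23). How much bone or cartilage of the insertion each sample held was not tested. The log2 fold change of Mepe was -5.74 without patellar 1, and that of Ibsp was -2.56 without supraspinatus 2. Without both patellar 1 and supraspinatus 4, 6 genes of the list were higher in supraspinatus tendon.

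Wnt antagonists and activators divided between the tendons. Of 35 genes 16 were higher in patellar and 11 in supraspinatus tendon (median 0.89). On the supraspinatus side, Wif1, a secreted inhibitor, was at 417, 20.1, 80.1 and 93.1 CPM in the patellar and 1028, 1209, 997 and 798 CPM in the supraspinatus libraries (log2 fold change -2.73 ± 0.71, adjusted p = 0.00461). Frzb differed by -2.34 ± 0.44, Dkk3 by -2.04 ± 0.31 and the activator Rspo1 by -2.40 ± 0.42. On the patellar side, Sfrp2, a secreted frizzled-related protein, was at 143, 358, 335 and 580.1 CPM in the patellar and 62.5, 37.6, 52.3 and 17.7 CPM in the supraspinatus libraries (log2 fold change 3.06 ± 0.48, adjusted p = 0.000101). The ligand gene Wnt2 was at 12.7, 15.4, 20.8 and 26.1 CPM in the patellar and 1.84, 1.35, 3.32 and 0.615 CPM in the supraspinatus libraries (log2 fold change 3.39 ± 0.50, adjusted p = 6.34e-05). Neither overlapped. Sfrp1 (2.68 ± 0.34), Sfrp4 (1.80 ± 0.45), Dkk2 (1.91 ± 0.30), Wnt10b (2.30 ± 0.53) and Wnt5a (1.48 ± 0.24) were on the same side. Of genes that Wnt signals switch on, Axin2 did not pass (log2 fold change 0.51 ± 0.22, adjusted p = 0.0653), and Lef1 (log2 fold change 0.94 ± 0.29, adjusted p = 0.0143) and Nkd1 (log2 fold change 1.57 ± 0.30, adjusted p = 0.000545) were higher in patellar tendon. The log2 fold change of Wif1 was -4.00 without patellar 1, and Lef1 did not pass without both patellar 1 and supraspinatus 4 (0.79, adjusted p = 0.0758).

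**Figure D4:**
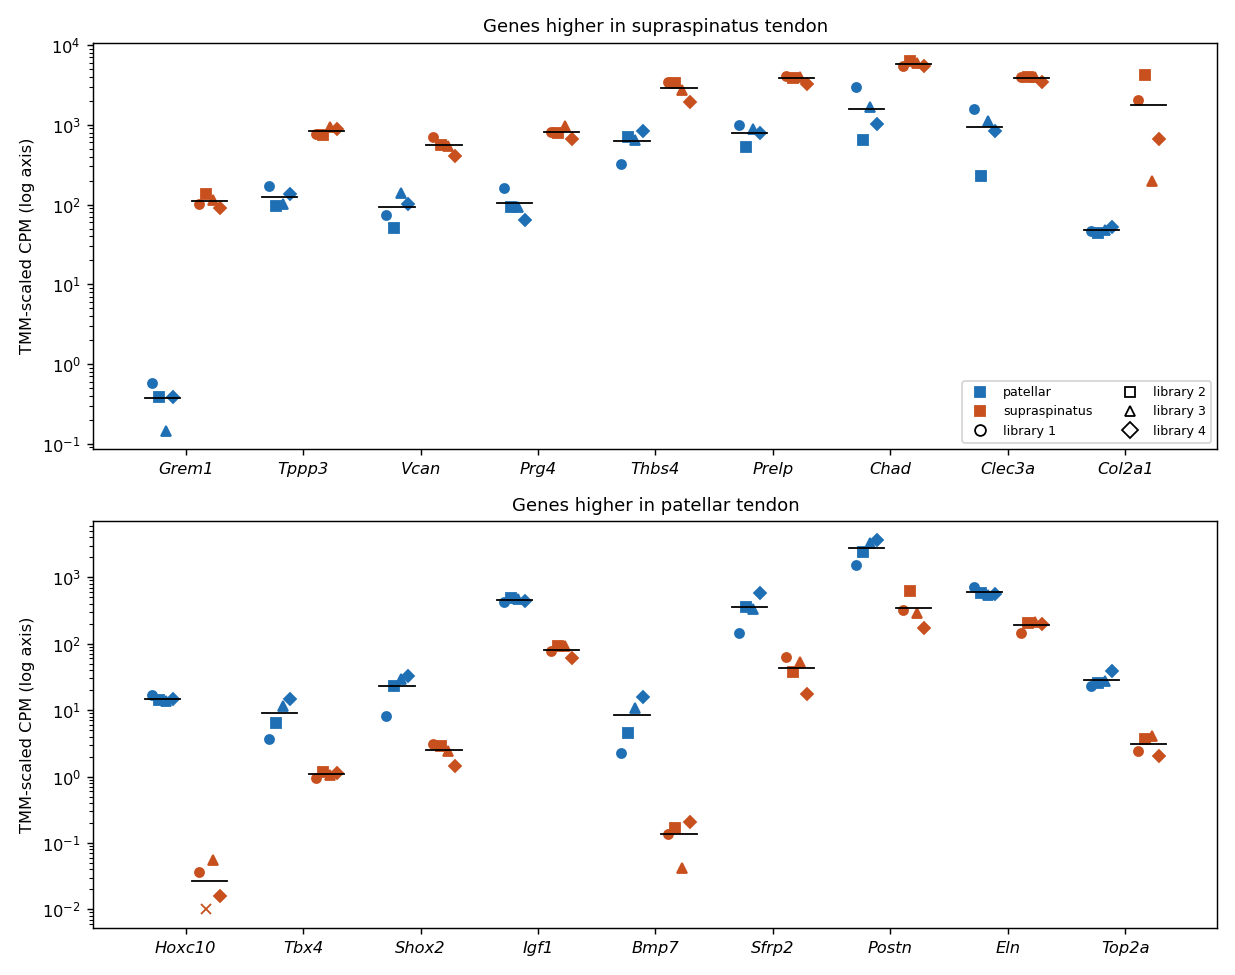
TMM-scaled CPM (y axis, log scale) of 9 genes higher in supraspinatus and 9 higher in patellar tendon in each library (marker shape); bars are means of 4 libraries and a cross stands for 0 counts. The 2 tendons do not overlap in any of the 18 genes, and Col2a1 runs from 195 to 4173 CPM among supraspinatus libraries.

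The smallest adjusted p among genes higher in supraspinatus tendon belonged to Zdhhc1, a palmitoyl transferase, whose libraries were at 38.3, 31.7, 30.4 and 31.1 CPM in the patellar and 119, 113, 122 and 137 CPM in the supraspinatus libraries (log2 fold change -1.90 ± 0.09, adjusted p = 2.15e-08). Its libraries differed little within a tendon, and its muscle part was 29.7 ± 5.18% (17.4% without supraspinatus 4). Ezr, which ties actin to the membrane, was next after Grem1 and Tppp3, at 48.2, 35.9, 47.2 and 47.2 CPM in the patellar and 203, 176, 176 and 153 CPM in the supraspinatus libraries (log2 fold change -1.99 ± 0.13, adjusted p = 2.64e-07). Among genes of large fold, Pcsk2, a prohormone convertase, had 0, 1, 7 and 2 counts in patellar libraries 1 to 4 and was at 3.4, 5.33, 8.46 and 7.35 CPM in supraspinatus libraries (adjusted p = 5.4e-06). Cysrt1 was at 0.377, 0.468, 0.607 and 0.305 CPM in the patellar and 16.8, 14.3, 12.9 and 5.4 CPM in the supraspinatus libraries (log2 fold change -4.81 ± 0.45, adjusted p = 1.77e-06) and Stmn2, a microtubule regulator of neurons, at 0.973, 1.06, 0.937 and 1.5 CPM in the patellar and 24.4, 29.9, 46.4 and 15.9 CPM in the supraspinatus libraries (log2 fold change -4.70 ± 0.56, adjusted p = 9.86e-06). All 5 passed with the score, and none overlapped. The naming rule required no overlap, and for Cysrt1 and Stmn2 also a pass with the score, so these are not separate results.

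HOX genes carry position along the body axis. Hoxc10, a HOX gene of the hindlimb, was at 16.7, 14.2, 13.9 and 14.9 CPM in patellar libraries and at 0 to 0.0558 CPM, or 3, 0, 4 and 1 counts, in supraspinatus libraries 1 to 4 (adjusted p = 4.76e-09, the smallest of all genes). Hoxc8 was at 9.9, 13.6, 12.9 and 13.8 CPM in the patellar and 0.417, 0.191, 0.307 and 0.0162 CPM in the supraspinatus libraries (log2 fold change 5.72 ± 0.50, adjusted p = 1.14e-06). Hoxb7 was at 12.4, 11.3, 8.71 and 9.29 CPM in the patellar and 1.23, 0.7, 0.586 and 0.631 CPM in the supraspinatus libraries (log2 fold change 3.72 ± 0.24, adjusted p = 1.81e-07) and Hoxc9 at 2.57, 4.78, 4.43 and 4.81 CPM in the patellar and 0.282, 0.331, 0.321 and 0.0809 CPM in the supraspinatus libraries (log2 fold change 4.01 ± 0.40, adjusted p = 3.05e-06). Every patellar library was above every supraspinatus library in these 4 genes. Hoxb9 had 0 counts in all supraspinatus libraries and 0.45, 0.369, 0.264 and 0.344 CPM in patellar libraries. The more anterior genes Hoxc5 (log2 fold change -0.96 ± 0.24, adjusted p = 0.00394) and Hoxb4 (log2 fold change -0.95 ± 0.23, adjusted p = 0.00275) were higher in supraspinatus tendon. Of 41 limb position and HOX genes tested 16 were higher in patellar and 5 in supraspinatus tendon (median 0.44), and 10 and 2 with the score. On library totals the counts were 21 and 1.

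T-box genes of the limbs showed both directions. Tbx4, known for the hindlimb, was at 3.7, 6.33, 11.7 and 14.6 CPM in the patellar and 0.956, 1.18, 1.06 and 1.12 CPM in the supraspinatus libraries (log2 fold change 3.07 ± 0.48, adjusted p = 9.56e-05). Tbx5, known for the forelimb, was at 1.06, 6.87, 6.05 and 6.16 CPM in the patellar and 12.3, 14.2, 13.5 and 8.41 CPM in the supraspinatus libraries (log2 fold change -1.27 ± 0.46, adjusted p = 0.0302). Patellar 1 was the lowest patellar library for both, and neither gene's groups overlapped. Shox2, a homeobox gene of the proximal limb, was at 8.22, 23.2, 29.4 and 32.7 CPM in the patellar and 3.08, 2.92, 2.47 and 1.46 CPM in the supraspinatus libraries (log2 fold change 3.23 ± 0.48, adjusted p = 6.08e-05). Tbx15 was higher in supraspinatus tendon (-1.13 ± 0.18) and Tbx18 (1.19 ± 0.18) and Emx2 (1.32 ± 0.31) in patellar tendon. Pitx1, the hindlimb factor upstream of Tbx4, did not pass (log2 fold change 0.44 ± 0.52, adjusted p = 0.495). Tbx4, Tbx5, Shox2 and Tbx15 passed with the score. Tbx5 did not pass when supraspinatus 1, 2 or 3 was left out (adjusted p from 0.0591 to 0.0641).

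Growth factor genes of the IGF axis were higher in patellar tendon for 9 of 16 and in supraspinatus tendon for 3 (median 1.04), and 6 and 2 passed with the score. Igf1, which drives tissue growth, was at 429, 487, 464 and 448 CPM in the patellar and 78, 93.4, 91.5 and 60.2 CPM in the supraspinatus libraries (log2 fold change 2.5 ± 0.16, adjusted p = 2.21e-07). Igfbp4, a binding protein that restrains it, was at 789, 1121, 984 and 735 CPM in the patellar and 82.4, 115, 182 and 133 CPM in the supraspinatus libraries (log2 fold change 2.82 ± 0.23, adjusted p = 7.39e-07). Igfbp5, another, was at 2925, 4106, 4042 and 4537 CPM in the patellar and 889, 1058, 1497 and 1268 CPM in the supraspinatus libraries (log2 fold change 1.73 ± 0.21, adjusted p = 1.5e-05). In each gene all patellar libraries were above all supraspinatus libraries. Igfbp6, which favours IGF2, was higher in supraspinatus tendon (log2 fold change -1.43 ± 0.21, adjusted p = 6.53e-05), and Igf1r (-0.56 ± 0.21) and Igf2r (-0.91 ± 0.13), the receptors, were also higher there. In the FGF list 6 of 21 genes were higher on each side, about the shares of all genes tested (28.8 and 27.5%). Fgf10, a mesenchymal ligand, was at 14, 20, 24.7 and 25.1 CPM in the patellar and 2.06, 2.04, 3.66 and 0.858 CPM in the supraspinatus libraries (log2 fold change 3.28 ± 0.36, adjusted p = 5.53e-06) and was the largest patellar difference, while Fgf6 and Fgfr4, both known from muscle, differed by -3.86 ± 0.87 and -3.10 ± 0.45 in the other direction. Without patellar 1 the log2 fold change of Fgf6 was -4.67. Igf1r did not pass when patellar 1, 2 or 3 or supraspinatus 1, 2 or 3 was left out (adjusted p from 0.0518 to 0.0975).

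Elastic fibre genes were higher in patellar tendon for 8 of 18 and in supraspinatus tendon for 5 (median 0.59), against 28.8 and 27.5% of all genes tested, and on library totals for 10 and 1. Eln, elastin itself, was at 721, 580.5, 548 and 557 CPM in the patellar and 147, 203, 211 and 196 CPM in the supraspinatus libraries (log2 fold change 1.67 ± 0.24, adjusted p = 5.77e-05). Mfap2, a microfibril protein, was at 174, 259, 335 and 389 CPM in the patellar and 37.9, 67.1, 33.1 and 18.2 CPM in the supraspinatus libraries (log2 fold change 2.89 ± 0.36, adjusted p = 1.44e-05). Both were without overlap, and both passed with the score. Efemp1 (1.49 ± 0.22) and Ltbp1 (1.42 ± 0.21) were on the same side, and Ltbp2 (-1.97 ± 0.28) was on the other. Postn, periostin, a matrix protein of collagen-rich tissue, was at 1515, 2428, 3283 and 3664 CPM in the patellar and 318, 619, 294 and 175 CPM in the supraspinatus libraries (log2 fold change 2.96 ± 0.40, adjusted p = 2.92e-05).

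Collagen genes did not move as one. Col1a1 did not pass (log2 fold change 0.80 ± 0.33, adjusted p = 0.0519) with groups that overlapped, and Col3a1, of thin fibrils, was higher in patellar tendon (log2 fold change 0.88 ± 0.28, adjusted p = 0.0152). Col1a1 and Col3a1 did not pass with the score. Col5a3 was higher there (1.42 ± 0.27) and Col24a1 lower (-2.43 ± 0.28). Of 27 other collagens 5 were higher in patellar and 12 in supraspinatus tendon (median -0.42), against 8 and 6 on library totals. The basement membrane gene Col4a1 was at 1862, 2588, 2633 and 2210 CPM in the patellar and 649, 838, 789 and 643 CPM in the supraspinatus libraries (log2 fold change 1.67 ± 0.17, adjusted p = 3.74e-06), and Col4a2 (1.28 ± 0.15) and Col18a1 (1.60 ± 0.23) went with it. Col22a1, a collagen of the muscle-tendon junction, was at 25.6, 3.73, 3.42 and 11.8 CPM in the patellar and 158, 167, 167 and 203 CPM in the supraspinatus libraries (log2 fold change -3.96 ± 0.63, adjusted p = 0.000118), with a muscle part of 29.4 ± 13.4%. Leaving out a library moved several of these values. Col1a1 passed without patellar 1 (0.93, adjusted p = 0.0248), without supraspinatus 1 (0.93, adjusted p = 0.0457), without supraspinatus 2 (0.97, adjusted p = 0.0361) or without Achilles 1 (0.80, adjusted p = 0.0488). Col3a1 did not pass without patellar 3 (0.74, adjusted p = 0.0519) or patellar 4 (0.73, adjusted p = 0.053). Without patellar 2 there were 7 and without supraspinatus 2 there were 6 other collagens higher in supraspinatus tendon. The log2 fold change of Col22a1 was -4.81 without patellar 1, and its muscle part was 5.11% without supraspinatus 4.

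Enzymes that cut or crosslink matrix were called in both directions. Of 38 proteases and inhibitors 17 were higher in patellar and 5 in supraspinatus tendon (median 0.57, 8 and 1 with the score), against 28.8 and 27.5% of all genes tested. Mmp23 was at 54.3, 70.3, 79.95 and 97.2 CPM in the patellar and 12.8, 17.7, 15.8 and 10 CPM in the supraspinatus libraries (log2 fold change 2.42 ± 0.24, adjusted p = 2.38e-06), and Adamts5, which cuts aggrecan and versican, at 38.8, 59.2, 67.1 and 50.4 CPM in the patellar and 18, 19.9, 14.3 and 10.8 CPM in the supraspinatus libraries (log2 fold change 1.77 ± 0.22, adjusted p = 1.28e-05). Adamts4 (2.49 ± 0.48), Adamts15 (2.11 ± 0.28), Mmp14 (1.43 ± 0.29) and Timp2 (1.29 ± 0.45) were on the same side. Adamts20 was the exception at the other end, at 2.6, 0.893, 0.277 and 1.34 CPM in the patellar and 36.9, 23.8, 22.5 and 27.9 CPM in the supraspinatus libraries (log2 fold change -4.44 ± 0.61, adjusted p = 3.35e-05). Mmp27, outside the list, was at 22.8, 34.5, 47.7 and 56.9 CPM in patellar libraries and had 4, 6, 0 and 2 counts in supraspinatus libraries 1 to 4. Of 25 collagen processing enzymes 12 were higher in patellar and 4 in supraspinatus tendon (median 0.54). They included the crosslinking oxidases Lox (log2 fold change 1.57 ± 0.46, adjusted p = 0.00881) and Loxl1 (log2 fold change 2.17 ± 0.36, adjusted p = 0.000146) and the procollagen protease Tll1 (log2 fold change 2.19 ± 0.20, adjusted p = 1.82e-06), while Plod2, which hydroxylates telopeptide lysines, was higher in supraspinatus tendon (log2 fold change -1.52 ± 0.38, adjusted p = 0.00362). Of the 12, 1 (Tll1) passed with the score. Without patellar 1 the log2 fold changes of Adamts4 and Adamts20 were 1.90 and -5.08. Timp2 did not pass when patellar 3, patellar 4, supraspinatus 3 or supraspinatus 4 was left out (adjusted p from 0.0547 to 0.138). Of the processing enzymes 1 was higher in supraspinatus tendon without supraspinatus 1, and 2 were without patellar 2 or supraspinatus 2.

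Cell cycle genes were higher in patellar tendon for 23 of 27 and in supraspinatus tendon for 0 (median 1.70), and 21 passed with the score. Top2a, a topoisomerase of dividing cells, was at 23.5, 25.7, 27 and 39.2 CPM in the patellar and 2.46, 3.71, 4.08 and 2.02 CPM in the supraspinatus libraries (log2 fold change 3.23 ± 0.36, adjusted p = 6.09e-06). Mki67, the Ki-67 antigen, was at 10.9, 14.7, 19.6 and 27 CPM in the patellar and 1.86, 3.71, 3.91 and 2.85 CPM in the supraspinatus libraries (log2 fold change 2.55 ± 0.45, adjusted p = 0.000285). Ccna2, cyclin A, was at 5.66, 8.52, 10.8 and 20.03 CPM in the patellar and 0.601, 1.15, 0.893 and 0.291 CPM in the supraspinatus libraries (log2 fold change 3.93 ± 0.60, adjusted p = 8.19e-05). No library overlapped in the 3. The summed level was 507 to 683 CPM in patellar and 295.2 to 329.2 CPM in supraspinatus libraries. Tpx2, a spindle protein, had the largest of the 4 differences that did not pass, at 15.7, 12.3, 14.4 and 20.3 CPM in the patellar and 33.8, 19.7, 24.3 and 15.3 CPM in the supraspinatus libraries (log2 fold change -0.57 ± 0.38, adjusted p = 0.219).

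Other genes of small adjusted p were higher in patellar tendon. Mme, which encodes the peptide-cutting enzyme neprilysin, had the second smallest adjusted p there, at 35.4, 55, 58.1 and 38.5 CPM in the patellar and 2.21, 3.2, 1.93 and 2.72 CPM in the supraspinatus libraries (log2 fold change 4.22 ± 0.21, adjusted p = 2.15e-08). Angpt4, a ligand of the Tie2 receptor of vessels, was at 108, 174, 182 and 119 CPM in the patellar and 2.19, 2.5, 1.48 and 1.49 CPM in the supraspinatus libraries (log2 fold change 6.25 ± 0.34, adjusted p = 7.48e-08). Neither overlapped, which the rule that named genes by p required. Of 21 angiogenic ligands and antagonists 6 were higher in patellar and 3 in supraspinatus tendon (median 0.02), on the patellar side about the 28.8% of all genes tested, with Angpt2 (1.33 ± 0.23), Cxcl12 (1.55 ± 0.29) and Vegfd (2.12 ± 0.47) among the 6. Vegfa did not pass (log2 fold change 0.21 ± 0.27, adjusted p = 0.541). Oxtr, the oxytocin receptor, was at 40.2, 47, 39.5 and 20.9 CPM in the patellar and 0.049, 0.166, 0.209 and 0.275 CPM in the supraspinatus libraries (log2 fold change 7.75 ± 0.47, adjusted p = 1.15e-07). Cysltr1, a leukotriene receptor, was at 67.7, 58.4, 45.2 and 53.2 CPM in the patellar and 4.19, 5.12, 7.61 and 6.59 CPM in the supraspinatus libraries (log2 fold change 3.26 ± 0.20, adjusted p = 1.15e-07), and both passed with the score.

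Lists of fat cell, blood, nerve and endothelial genes had medians on the patellar side. Of 18 adipocyte genes 16 were higher in patellar tendon (median 3.75). Adipoq, adiponectin, was at 1643, 2409, 2161 and 963 CPM in the patellar and 3.14, 5.03, 17.7 and 20.8 CPM in the supraspinatus libraries (log2 fold change 7.26 ± 0.69, adjusted p = 1.92e-06). Lep, leptin, was at 187, 374, 342 and 109 CPM in the patellar and 0.478, 0.624, 1.84 and 1.41 CPM in the supraspinatus libraries (log2 fold change 7.87 ± 0.70, adjusted p = 1.32e-06). Cfd, adipsin, was at 4642, 5393, 4872 and 1797 CPM in the patellar and 27.3, 41.5, 69.5 and 47.2 CPM in the supraspinatus libraries (log2 fold change 6.49 ± 0.54, adjusted p = 7.39e-07). The groups lay far apart in all 3. The summed level of the list was 13090, 19080, 17350 and 6588 CPM in patellar and 1331, 1266, 1611 and 2542 CPM in supraspinatus libraries 1 to 4. Patellar 4 had the lowest fat sum of the patellar libraries.

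Blood-borne and mast cells were marked more in patellar tendon. All 13 granulocyte, mast cell and marrow genes were higher there (median 4.39, 10 with the score), with summed levels of 239.2 to 468 CPM against 23.82 to 30.23 CPM. Cpa3, a mast cell protease, was at 56.6, 93.8, 117 and 101 CPM in the patellar and 2.97, 3.97, 2.08 and 3.2 CPM in the supraspinatus libraries (log2 fold change 4.91 ± 0.41, adjusted p = 7.97e-07). Mpo, myeloperoxidase of neutrophil precursors, was at 28.8, 57.4, 51.4 and 11 CPM in the patellar and 0.0245, 0.204, 0.168 and 0.291 CPM in the supraspinatus libraries (log2 fold change 7.78 ± 0.74, adjusted p = 1.99e-06). The groups did not overlap in either. S100a8, a neutrophil gene, averaged 2.04 ± 0.438 CPM in patellar tendon (SD, n = 4) and had 5, 3, 0 and 1 counts in supraspinatus libraries 1 to 4, and Elane had 0 counts in all 4. Of 7 erythroid genes 6 were higher in patellar tendon (median 2.90), with summed levels of 394.6 to 700.7 CPM against 33.01 to 75.29 CPM. Hbb, beta globin, whose reads near-identical copies can share, was at 278, 282, 345 and 508 CPM in the patellar and 23.7, 49.4, 48.5 and 50.9 CPM in the supraspinatus libraries (log2 fold change 3.03 ± 0.35, adjusted p = 8.84e-06). Of 12 lymphocyte genes 9 were higher in patellar tendon and 0 in supraspinatus tendon (median 2.20), and Cd3e, of T cells, was at most 1.34 CPM in any library of the pair and did not pass without Achilles 1 (adjusted p = 0.0557) or when any of these 8 libraries but patellar 1 or supraspinatus 3 was left out (adjusted p from 0.0717 to 0.202). Macrophage genes gave 5 higher and 1 lower of 13 (median 0.70), with summed levels that overlapped (1186 to 2202 and 933.9 to 2019 CPM). How much blood, marrow or fat the samples held was not tested.

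The medians of the nerve and endothelial lists lay on the patellar side. Of 18 Schwann cell and nerve genes 12 were higher there and 0 in supraspinatus tendon (median 2.67, 6 with the score). Sox10, the master factor of the lineage, was at 6.95, 7.83, 3.5 and 5.32 CPM in the patellar and 0.588, 0.407, 0.614 and 0.485 CPM in the supraspinatus libraries (log2 fold change 3.49 ± 0.36, adjusted p = 3.59e-06). Its groups did not overlap. The summed level of the list was 971.6 to 1705 CPM in patellar and 894 to 1043 CPM in supraspinatus libraries, since the most abundant members, Pmp22 (log2 fold change -0.42 ± 0.37, adjusted p = 0.353) and S100b (log2 fold change 0.61 ± 0.31, adjusted p = 0.11), which other cells express, did not pass. Without Achilles 1 both passed, Pmp22 as higher in supraspinatus tendon (-0.42, adjusted p = 0.00481) and S100b as higher in patellar tendon (0.61, adjusted p = 0.0496). Of 18 endothelial genes 14 were higher in patellar and 1 in supraspinatus tendon (median 1.02, 11 and 1 with the score). Cdh5, the cadherin of endothelium, was at 488, 360.2, 322 and 350.2 CPM in the patellar and 144, 195, 306 and 333 CPM in the supraspinatus libraries (log2 fold change 0.64 ± 0.25, adjusted p = 0.0401), with supraspinatus 4 inside the patellar range. Sox17, of arteries, differed by 2.69 ± 0.32, and the exception was Lyve1, of lymph vessels (log2 fold change -0.96 ± 0.27, adjusted p = 0.00718). Of 14 pericyte and smooth muscle genes 5 were higher in patellar and 4 in supraspinatus tendon (median 0.41), near the shares of all genes tested. Their summed level went the other way, at 1386 to 3177 CPM in patellar and 5936 to 9083 CPM in supraspinatus libraries without overlap, most of the supraspinatus sum from Des, the desmin gene that muscle fibres also express, at 739.9, 202, 128 and 218 CPM in the patellar and 5633, 4440, 4629 and 7209 CPM in the supraspinatus libraries (log2 fold change -4.09 ± 0.60, adjusted p = 5.58e-05) and with a log2 fold change of -4.93 without patellar 1. Cdh5 did not pass when patellar 1, 2 or 4 or supraspinatus 1 or 2 was left out (adjusted p from 0.0558 to 0.128), and S100b passed without patellar 4 (0.77, adjusted p = 0.0467).

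**Figure D5:**
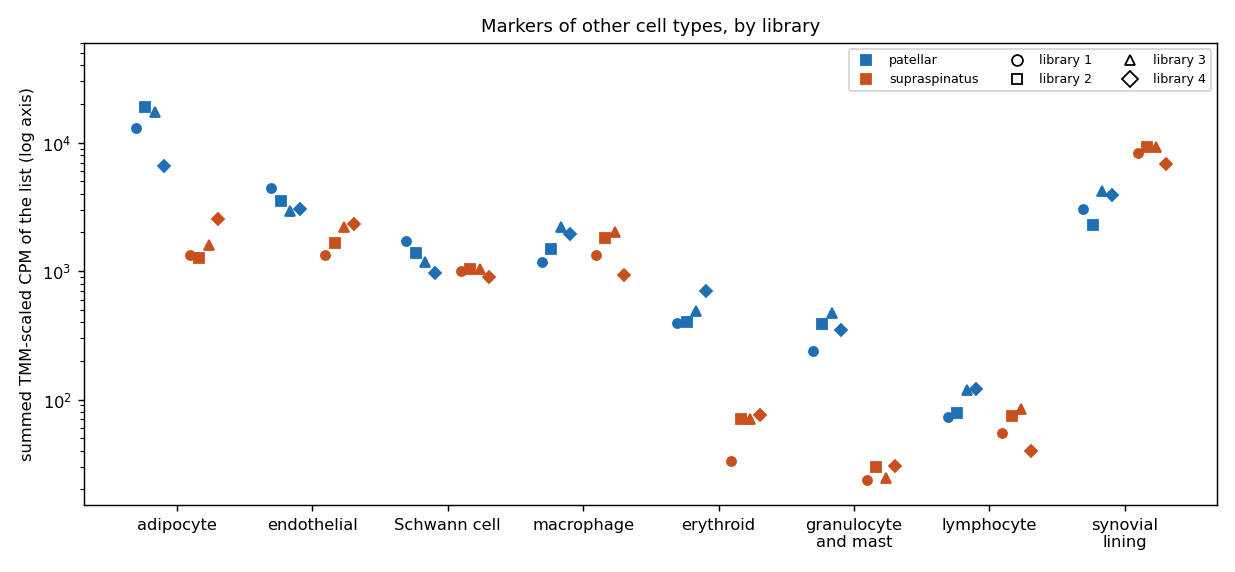
Summed TMM-scaled CPM (y axis, log scale) of marker lists of 8 other cell types in each patellar and supraspinatus library (marker shape). The fat, erythroid and granulocyte and mast cell sums do not overlap between the tendons, at 6588 to 19080 against 1266 to 2542 CPM for fat, while the macrophage and lymphocyte sums overlap.

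Scx, Mkx and Tnmd, defining genes of the tendon fibroblast, did not pass the test. Scx, the tendon transcription factor scleraxis, was at 15.6, 28.1, 36 and 67.7 CPM in the patellar and 27.6, 23, 16.3 and 10.8 CPM in the supraspinatus libraries (log2 fold change 0.93 ± 0.60, adjusted p = 0.202). Mkx, the other tendon factor, was at 18.7, 25, 19.9 and 21.8 CPM in the patellar and 44.8, 42.8, 27.3 and 22.7 CPM in the supraspinatus libraries (log2 fold change -0.69 ± 0.35, adjusted p = 0.105). Tnmd was at 258, 454, 392 and 810.5 CPM in the patellar and 1054, 999, 585 and 421 CPM in the supraspinatus libraries (log2 fold change -0.68 ± 0.43, adjusted p = 0.196). The groups overlapped in Scx, Mkx and Tnmd, and none of the 3 passed. Of 23 tendon fibroblast genes 9 were higher in supraspinatus and 1 in patellar tendon (median -0.67), and 13 did not pass. Of all genes tested 56.4% were called. The gene higher in patellar tendon was the collagen-cutting protease Ctsk (log2 fold change 1.06 ± 0.21, adjusted p = 0.000736). Tppp3 and Thbs4, described above, were the members that passed with the score. Without Achilles 1, a library of neither tendon that also sets the shared spread, Mkx passed (-0.69, adjusted p = 0.0169). Without each of patellar 1, supraspinatus 1 and supraspinatus 2 in turn, 2 genes of the list were higher in patellar tendon.

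Genes of acute stress and of the daily clock can move with the handling or the time of a sample. Of 24 immediate early and heat shock genes 5 were higher in supraspinatus and 1 in patellar tendon (median -0.39), and on library totals 3 and 7. Fos, a gene switched on within minutes, was at 112, 132, 86.8 and 69.6 CPM in the patellar and 78.2, 81.3, 292 and 1161 CPM in the supraspinatus libraries (log2 fold change -2.01 ± 0.85, adjusted p = 0.0563). Supraspinatus 4 stood above all other libraries, with 292 CPM in supraspinatus 3 the next. Hspb1, a small heat shock protein abundant in muscle, was higher in supraspinatus tendon (log2 fold change -1.56 ± 0.20, adjusted p = 2.31e-05). Of 19 clock genes 7 were higher in supraspinatus tendon and 0 in patellar tendon (median -0.34), against 27.5 and 28.8% of all genes tested. Their summed level was 1028 to 1424 CPM in patellar and 1848 to 2027 CPM in supraspinatus libraries, without overlap. Per1 differed by -1.44 ± 0.38 and Nr1d1 by -0.88 ± 0.16, while Dbp (log2 fold change 0.15 ± 0.38, adjusted p = 0.755) and Arntl (log2 fold change -0.16 ± 0.34, adjusted p = 0.709) did not pass. Of 13 mechanosensitive channel and receptor genes 4 were higher in patellar tendon, including Piezo2 (log2 fold change 1.12 ± 0.34, adjusted p = 0.0111) and Piezo1 (log2 fold change 0.56 ± 0.14, adjusted p = 0.00412), and 3 in supraspinatus tendon, including Tmem63b (log2 fold change -1.29 ± 0.14, adjusted p = 5.57e-06). Trpv4, an osmotic and stretch channel of cartilage, did not pass (log2 fold change -0.58 ± 0.26, adjusted p = 0.0673). Fos passed without supraspinatus 1 (-2.33, adjusted p = 0.0311) or supraspinatus 2 (-2.35, adjusted p = 0.0304), and the log2 fold change of Per1 was -2.03 without patellar 1. Trpv4 passed without patellar 1 (-0.78, adjusted p = 0.0229) or patellar 3 (-0.76, adjusted p = 0.0329), and Piezo2 did not without patellar 4 (0.81, adjusted p = 0.0531). Without patellar 1, 2 clock genes were higher in patellar tendon. Without patellar 3, 5 channel and receptor genes were higher in supraspinatus tendon. The 1 stress gene higher in patellar tendon did not pass without patellar 3 or 4 or without supraspinatus 1, 2 or 3.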

How the data were processed

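Total RNA of 16 rat tendon libraries, 4 for each of 4 tendons, was sequenced after purification with a miRNeasy Micro kit and DNase I, per the labels' protocols. The submitters' processing notes name HISAT2, FastQC, edgeR and rn6. Which tool counted the reads, with which annotation and strand setting, is not given in the sources used here, so reads of antisense and overlapping genes cannot be told apart. The values used were the deposited raw counts per Ensembl gene of 23285 genes, with 0 columns of samples outside the series.

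Of these, 16948 genes passed edgeR's filterByExpr (minimum count 10, minimum total 15). Counts were scaled by TMM and fitted over all 16 libraries with 1 coefficient per tendon (12 residual degrees of freedom, 11 with the muscle score) by edgeR's quasi-likelihood test (edgeR 4.0.16, limma 3.58.1, DESeq2 1.42.0 and R 4.3.3). Calls were made at an adjusted p under 0.05 over all genes tested, with a fold threshold of 2 as an alternative. The score is the mean log2 CPM of 13 muscle genes with a prior count of 2. The main test and the mean of the linear slope on the muscle share were tested on simulated data, and the alternatives were not. The simulated data for the slope held counting noise only, so they do not cover the SE of a muscle part or its classes by 2 standard errors. Alternatives were other scalings, filters and tools, a replicate block, the pair alone, other scores and each library left out.

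The members and the 38 gene lists were chosen with earlier results of these data known. The lists hold 786 symbols, of which 745 matched the table, 12 of them by an older symbol or Ensembl ID, and 41 are not analysed here. Named were any list members and, among called genes without overlap and averaging 5 CPM or more in the tendon with more, up to 12 per direction by fold and 6 by p. The same rule by fold was applied to genes that also passed with the score, had no positive muscle slope where higher in supraspinatus tendon and were on no muscle list. Up to 6 genes outside the muscle lists were named per direction of the slope, by p.

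The authors' deposited table of log2 fold changes and p-values from edgeR holds 12588 genes. Of these, 8097 had an adjusted p under 0.05 in the authors' deposited table for this pair, 8095 were tested here and 7722 were called here in the same direction. Its logCPM values, on the log2 CPM scale by the authors, were not used. Libraries of the same tendon differed by more than counting noise (chi-square per degree of freedom of 68.6 to 829), so each was counted as 1 sample. Floors of 3 counts cover counting error only, whereas the SE of a fold change or of a muscle part also takes in the spread between libraries. That of a fold change is the value implied by the test and not a direct measure of this spread. Promoter sequences came from RefSeq on GRCr8 and were matched by symbol.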

Additional observations from a re-analysis of the deposited data

Results flagged for a closer look

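In 43 of 416 sets of 4 libraries of named genes, 1 library stood apart, its gap to the nearest of the other 3 taking most of the range of the set. For normally distributed values chance gives this in about 1 in 20 sets. CPM were not transformed for this and can be skewed, so the chance rate of these sets was not established. Of the 43, 29 were in patellar 1, 6 in supraspinatus 4, 3 each in patellar 4 and supraspinatus 3, and 1 each in patellar 2 and supraspinatus 1. The sets share libraries, so these are not independent.

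Patellar 1 was far above the other patellar libraries in muscle genes. Acta1 was at 9524 CPM there against 108 to 1142 CPM, Myh4 at 7636 against 37 to 1142 CPM and Ckm at 2454 against 16.1 to 302 CPM. Tnni2 was at 1498 CPM, Des at 740 CPM, Pfkm at 420 CPM, Mybph at 246 CPM, Hhatl at 52.9 CPM, Cav3 at 25.7 CPM, Rbfox1 at 19.7 CPM, Clcn1 at 10.9 CPM, Myod1 at 6.56 CPM and Dok7 at 2.31 CPM, each also above the other 3. Its muscle share of 2.44% on the TMM scale was the highest of the patellar libraries.

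Patellar 1 also stood apart in genes on no muscle list. It was high in Gapdh (181 CPM), Per1 (64.2 CPM against 19.7 to 24.2 CPM), Adamts4 (44.2 CPM against 14.1 to 16.4 CPM), Zdhhc1 (38.3 CPM), Tpi1 (29.3 CPM), Tmem63b (27.4 CPM), Padi2 (19.6 CPM), Bmp5 (18.6 CPM), Arntl (14.1 CPM against 5.49 to 6.53 CPM), Sox5 (13.3 CPM), Sox6 (12.6 CPM) and Mepe (0.718 CPM). It was low in Tgfbr3 (157 CPM), Dkk2 (34.7 CPM), Hoxc9 (2.57 CPM) and Tbx5 (1.06 CPM against 6.05 to 6.87 CPM). The part of muscle RNA or of the time of sampling in these values was not tested.

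Supraspinatus 4, the supraspinatus library with most muscle RNA, was high in Ddit4l2 (218 CPM), Agbl1 (142 CPM), Dok7 (33.7 CPM), Fgfr4 (22.1 CPM) and C4bpa (0.259 CPM, against at most 0.014 CPM in the other 3) and low in Clec3a (3495 CPM against 3950 to 3994 CPM). Supraspinatus 3 was high in Efemp1 (83.8 CPM) and Hoxb4 (1.66 CPM) and low in Hspb1 (340 CPM), and supraspinatus 1 was low in Hbb (23.7 CPM). Patellar 4 was high in Lum (624 CPM against 210 to 248 CPM) and Igf1r (25.4 CPM) and low in Frzb (7.7 CPM), and patellar 2 was low in Ezr (35.9 CPM).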

How the results depend on the processing

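The counts of genes higher in patellar (4887) and in supraspinatus tendon (4668) stayed within 1.5 times under other size factors, filters and tools, in the pair alone, without Achilles 1 and with each library left out (4218 to 4894 and 4141 to 4794). They moved on library totals without TMM (8424 and 2523), with a 2-fold threshold (2688 and 2195) and with the muscle score (1715 and 1517). With the score, the counts were 4188 and 733 on library totals and ran from 983 to 1834 and from 621 to 1639 with each library left out. They were lowest without patellar 1. The 330 genes with a positive slope on the score were 207 to 324 with a library left out. The 14 with a negative slope were 2 on library totals, 6 without a filter on low counts, 28 with limma-voom and 5 to 23 with a library left out. The median muscle part of 73.5% ran from 48.7 to 89.1%, the 1461 genes above 50% from 498 to 1618 and the 631 below from 411 to 690, each lowest without supraspinatus 4, and 908 were above on library totals. The muscle part, its alternatives and the fit without patellar 1 and supraspinatus 4 were chosen after seeing the data.

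The replicate block did not rest on a clear pairing: libraries of equal number correlated at -0.126, -0.008, 0.01 and -0.21 in their deviations from the tendon means. With the block the counts were 4767 and 4667, and 1236 and 1284 with the score. In the pair alone with the block, which leaves fewer residual degrees of freedom, they were 3131 and 3244. With the block over all tendons Axin2 and Tgfb2 passed, and Cd3e, Cdh5, Tgfb1 and Timp2 did not, with no other call changed among 209 genes of the text.

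Signs turned in 10 genes of the text with the score, where the log2 fold change was 0.45 for Acta1, 0.75 for Ckm, 0.42 for Dhrs7c, 1 for Hhatl, 0.18 for Mstn, 0.28 for Myh4, 0.31 for Myod1, 0.16 for Pax7, 0.48 for Tnni2 and -0.08 for Cd3e, and none of the 10 passed. Another 69 lost their call with the score and 2 gained one. Mybph, near 0 with all libraries, ran from -1.78 (without patellar 1) to 0.52 (without supraspinatus 4). Depth limits genes near 3 counts, and 4 libraries a tendon, possibly of shared animals, limit the rest.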

Other observations

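The growth factor list of the TGF-beta family was divided in another way. Of 14 genes 5 were higher in patellar and 6 in supraspinatus tendon, with a median log2 fold change of -0.33, and on library totals 6 and 3. The receptor genes Tgfbr2 (log2 fold change 0.79 ± 0.27, adjusted p = 0.0195) and Tgfbr3 (log2 fold change 1.02 ± 0.15, adjusted p = 5.42e-05) were higher in patellar tendon and Tgfbr1 (log2 fold change -0.71 ± 0.12, adjusted p = 0.000143) in supraspinatus tendon. The ligand genes Tgfb2 (log2 fold change -0.33 ± 0.16, adjusted p = 0.092) and Tgfb3 (log2 fold change 0.35 ± 0.20, adjusted p = 0.149) did not pass, and Tgfb1 was higher in patellar tendon (log2 fold change 0.57 ± 0.22, adjusted p = 0.0382). Tgfb1 did not pass when patellar 3, patellar 4, supraspinatus 3 or supraspinatus 4 was left out (adjusted p from 0.0744 to 0.166), nor Tgfbr2 when patellar 3 or patellar 4 was (adjusted p of 0.0649 and 0.0707), while Tgfb2 passed without patellar 4 (-0.45, adjusted p = 0.0346). The number of the list's genes higher in patellar tendon was then 3 without patellar 3 and 3 without patellar 4.

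Several genes known from liver and skin stood among the largest patellar fold changes. Alb, albumin, was at 3.65, 18.2, 16.7 and 7.62 CPM in patellar libraries and had 1, 1, 0 and 2 counts in supraspinatus libraries 1 to 4. C4bpa, a complement regulator, was at 13.8, 16.8, 14.7 and 6.59 CPM in patellar libraries and had 1, 1, 1 and 16 counts in supraspinatus libraries. Mst1, a growth factor of liver, was at 45.5, 72.2, 66.2 and 21.9 CPM in the patellar and 0.0368, 0.102, 0.363 and 0.534 CPM in the supraspinatus libraries (log2 fold change 7.68 ± 0.73, adjusted p = 1.97e-06). Krtap7-1, a protein of hair, was at 5.87, 10.4, 6.64 and 0.204 CPM in patellar libraries, with 2, 0, 3 and 2 counts in supraspinatus libraries, and did not pass with the score (adjusted p = 0.244). Patellar 4 was the lowest patellar library for C4bpa, Mst1 and Krtap7-1, as it was for the summed adipocyte genes (6588 CPM), while patellar 1 was the lowest for Alb. Whether these genes ran with fat was not tested. The log2 fold change of Mst1 was 8.33 without supraspinatus 4.

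The mean levels in the other tendons of the series, given as values with no test, placed the pair's genes differently. Hoxc10 averaged 11.9 CPM in Achilles and 0.0148 CPM in forepaw flexor tendon. Col2a1 averaged 57.5 and 11.7 CPM, and Pcsk2 0.401 and 0.152 CPM, so both were highest in supraspinatus tendon. Mmp27 averaged 5.42 and 4.62 CPM and was highest in patellar tendon.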
